A study of Homo sapiens with 2 samples.

Results

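Amino acid transporters are the membrane proteins that carry amino acids into, out of and between the compartments of a cell. The genes described here were chosen as 35 named members of 7 solute carrier (SLC) families, of 19775 genes in all, and each was read from the probe sets whose platform annotation names that gene alone. These were 90 of 54675 probe sets, and every member had at least 1. The cells were FaDu, a human pharyngeal squamous carcinoma line, infected with lentivirus so that a population carried either the GLUT4 sequence or the control vector. Both populations were selected with puromycin and used as stable cells. The study compared them to find genes that respond when GLUT4, the insulin-responsive glucose transporter, is overexpressed. Each population gave 1 Affymetrix U133 Plus 2.0 array, so there was no replicate and no test, and a difference between the arrays covers every way in which both populations differed. Each value is a normalized intensity on a linear scale, and each difference was taken on the log2 scale as GLUT4 minus vector. Intensities of different probe sets cannot be ranked against each other, since probes differ in how well they bind.

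SLC2A4, which encodes GLUT4, read 32.6 on the GLUT4 array and 28.3 on the vector array, both below 39.3, the median signal of all probe sets. It was not determined whether the introduced sequence holds the stretch that this probe set detects, which on this array type sits near the 3′ end of the mRNA, so its value does not check the labels. Of 10 squamous markers, all lay above the median signal on average over the arrays, and their summed intensity was 60199 in GLUT4 cells and 54673 in vector cells. The 6 fibroblast markers summed to 1459 in GLUT4 cells and 834 in vector cells, with DCN at 1050.1 in GLUT4 cells and 482 in vector cells, the 8 leukocyte markers summed to 346 in GLUT4 cells and 474 in vector cells, and the 5 endothelial markers to 145 in GLUT4 cells and 232 in vector cells. On average over the arrays, 4 of the 6 fibroblast, 3 of the 8 leukocyte and 2 of the 5 endothelial markers lay above the median signal. The fibroblast marker COL3A1 and the leukocyte marker PTPRC lay below it on both arrays. All 6 fibroblast markers were higher in GLUT4 cells, with log2 differences of 1.12 for DCN and 1.05 for LUM. The endothelial marker PECAM1 was at -1.55 and the leukocyte marker CD14 at -0.81, while 3 leukocyte and 3 endothelial markers lay above 0. What part these shifts have in the values below was not tested. As a measure of technical spread, the log2 differences of the 2 brightest probe sets of a gene had an SD of 0.29 over 10523 genes, which is 0.20 for a single probe set. Over the 22 members with at least 2 probe sets the SD was larger, at 0.51, or 0.36 for a single probe set. For the 14 members with at least 2 above the median signal it was 0.30, or 0.21.

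Several families share the work of amino acid transport. SLC1 members take up glutamate or small neutral amino acids with sodium. SLC7 light chains pair with the SLC3 heavy chains and exchange an amino acid inside the cell for another outside it, while the cationic members of SLC7 work alone. SLC38 and SLC6 members use the sodium gradient to gather neutral amino acids, and SLC36 members use protons. In tumor cells the exchangers SLC7A5 and SLC7A11 and the glutamine carrier SLC1A5 are known for feeding growth and glutathione synthesis. Several of these genes are induced by ATF4, the transcription factor of the amino acid response.

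The results showed that on their brightest probe set 3 of the 35 transporters were higher with GLUT4 by more than 1.5-fold, as were 1.84% of all genes. Another 3 were lower by more than 1.5-fold, as were 1.54% of all genes, and 29 lay within 1.5-fold. The higher genes were SLC38A4, SLC38A6 and SLC7A2, and the lower genes were SLC1A3, SLC6A6 and SLC7A7. The members past 1.5-fold made up 17.1% of the list, against 3.37% of all 19775 genes. The list was chosen with earlier results of these data known, so its share is not independent of these values. By the mean or the median of all probe sets of a gene, 2 members were higher and 1 lower by more than 1.5-fold. The shares of all genes given here are by the brightest probe set, so these counts have no like share beside them. All 6 lay above the median signal, where 20.7% of the 29 members and 4.37% of 12939 genes were past 1.5-fold. By the brightest probe set the list had no common direction, with 16 members above 0, 19 below 0 and a median of -0.02. All genes had a median of -0.02 as well. The 90 probe sets of the members lay more often below 0, with 35 above and 55 below it. Their median was -0.09, beside -0.01 for all probe sets. The median size of the difference, without its sign, was 0.14 in the list and 0.14 over all genes. Of the 90 probe sets, 8 were past 1.5-fold, or 8.89%, beside 3.26% of all probe sets. The 55 besides the brightest ones held 2, or 3.64%, and 28 of these 55 lay below the median signal. No share is given for the further probe sets of all genes, so the 3.64% has no like value beside it.

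**Figure D1:**
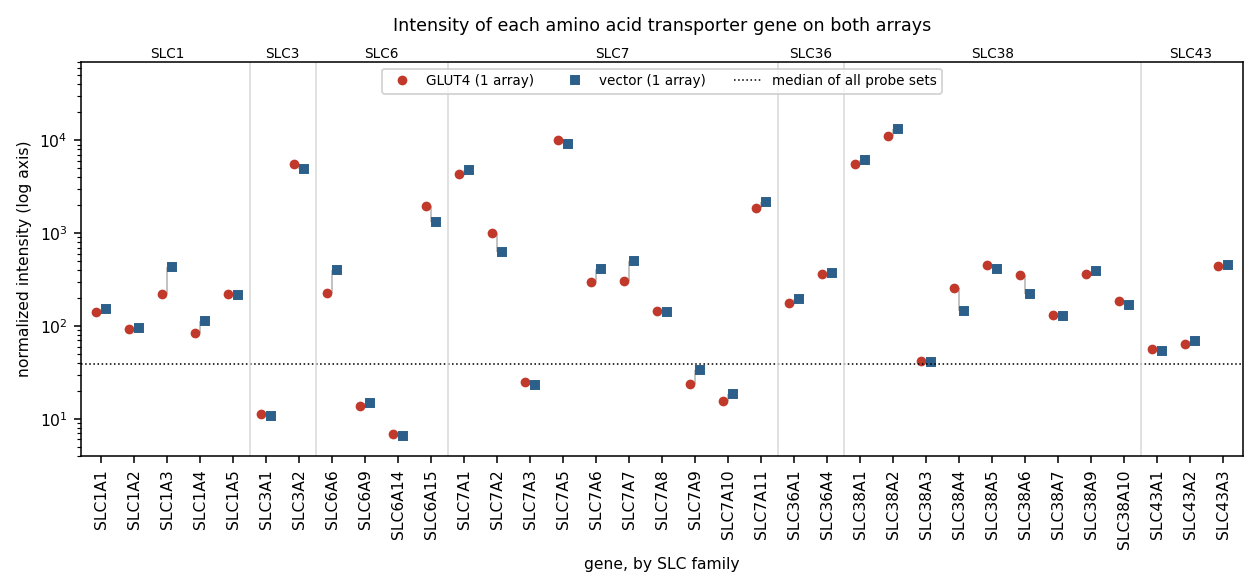
The normalized intensity of the brightest probe set of each of the 35 transporter genes is plotted on a log axis, with the GLUT4 array as red circles, the vector array as blue squares and 1 array per group. The symbols part most at SLC1A3, SLC6A6, SLC7A7, SLC7A2, SLC38A4 and SLC38A6, and the dotted line marks the median of all probe sets at 39.3.

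**Figure D2:**
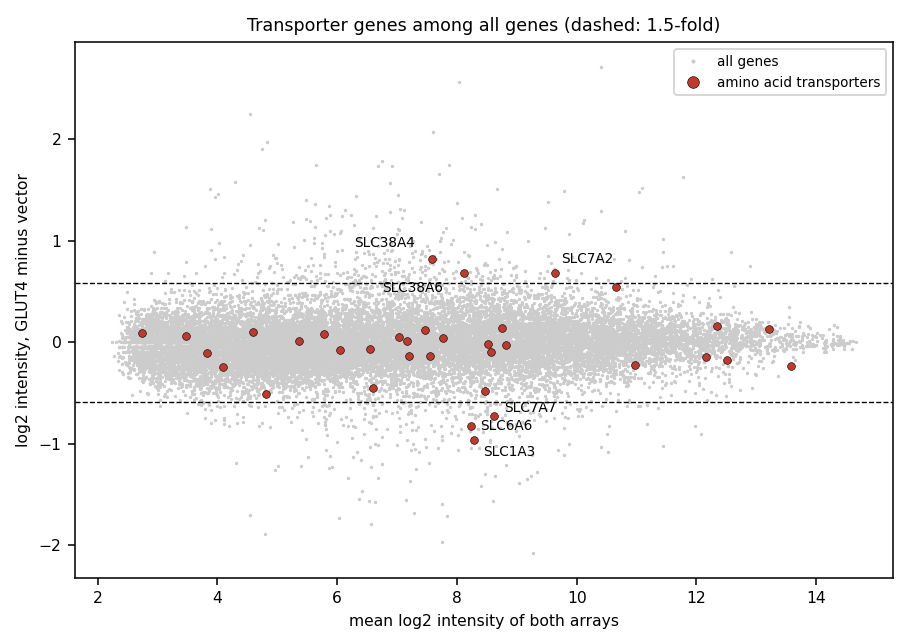
The vertical axis gives the log2 difference of GLUT4 minus vector and the horizontal axis the log2 intensity averaged over the arrays, with all 19775 genes in grey and the 35 transporters in red. The 6 named genes lie past the dashed lines at 1.5-fold, 3 on each side.

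Promoter sequences are shown for the gene with the largest difference on each side, and as short stretches for the members whose promoter holds the letters TGATGNAAN, the element that ATF4 binds with C/EBP proteins. RefSeq (GRCh38.p14) gave 47 promoters of 300 bases for 26 of the 35 members, from 250 bases before to 50 after a start site, and no entry for the other 9. On either strand, TGATGNAAN stood in 6 of these promoters (12.8%), each of a different gene, and in 3.61% of all 35116 promoters. The letters TGACNNNGC, the core of the antioxidant response element, stood in 7 (14.9%) and in 13.3% of all promoters. Both motifs were found in the same promoter of SLC3A2 and of SLC7A1, without overlap. Capitals mark TGATGNAA or its reverse complement, and each sequence runs from 5′ to 3′ on the strand of the gene.
SLC1A3, chr5:36596338-36596637, plus strand: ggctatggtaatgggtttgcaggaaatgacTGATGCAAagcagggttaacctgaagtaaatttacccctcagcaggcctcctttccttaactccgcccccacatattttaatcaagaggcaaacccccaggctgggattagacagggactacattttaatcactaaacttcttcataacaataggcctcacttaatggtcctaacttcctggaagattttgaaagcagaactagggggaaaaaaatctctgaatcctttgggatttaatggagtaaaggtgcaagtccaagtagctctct
SLC38A4, chr12:46825948-46826247, minus strand: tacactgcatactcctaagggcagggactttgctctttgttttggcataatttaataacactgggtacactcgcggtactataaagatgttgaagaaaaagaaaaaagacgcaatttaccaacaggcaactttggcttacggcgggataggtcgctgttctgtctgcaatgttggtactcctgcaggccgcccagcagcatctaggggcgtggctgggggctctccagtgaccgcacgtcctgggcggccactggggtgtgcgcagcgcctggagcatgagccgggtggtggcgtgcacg
SLC1A4, chr2:64989370-64989421, plus strand: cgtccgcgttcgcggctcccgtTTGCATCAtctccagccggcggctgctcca
SLC1A5, chr19:46784882-46784933, minus strand: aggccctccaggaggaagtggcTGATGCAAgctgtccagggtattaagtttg
SLC3A2, chr11:62881714-62881748, plus strand: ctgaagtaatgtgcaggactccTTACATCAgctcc
SLC38A1, chr12:46266491-46266542, minus strand: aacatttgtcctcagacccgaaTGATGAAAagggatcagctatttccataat
SLC7A1, chr13:29595652-29595703, minus strand: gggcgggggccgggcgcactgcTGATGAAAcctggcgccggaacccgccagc

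The promoter shown for SLC1A3 holds the element from base -220 to base -213 relative to its start site, whereas that shown for SLC38A4 holds neither motif. Another SLC1A3 promoter, at chr5:36606356-36606655, holds the antioxidant core and not the ATF4 element. The members with the element lay on both sides of 0, with log2 differences of -0.97 for SLC1A3, -0.45 for SLC1A4, -0.17 for SLC38A1, -0.15 for SLC7A1, 0.05 for SLC1A5 and 0.16 for SLC3A2. A match of letters is a description and not a bound site.

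In the SLC1 family, the glial-type glutamate transporter gene SLC1A3 read 223 in GLUT4 cells and 435 in vector cells, 1.95-fold lower (log2 difference -0.97). It stood at rank 67 of 19775 genes counted from the lowest. Its other probe set was dim and went the opposite way, at 17.1 in GLUT4 cells and 9.87 in vector cells, 1.73-fold higher. The remaining glutamate transporters were within 1.5-fold. SLC1A1, the widely expressed neuronal-type transporter, read 140.3 and 154 in GLUT4 and vector cells. SLC1A2, the main transporter of astrocytes, read 91.9 and 96.2 on its brightest probe set. All further SLC1A2 probe sets lay below the median signal on both arrays. SLC1A4, a carrier of alanine, serine and cysteine, read 83.3 in GLUT4 cells and 113 in vector cells (-0.45). Its 3 probe sets above the median signal lay between -0.55 and -0.12, all below 0. SLC1A5, which exchanges glutamine for other neutral amino acids, was nearly equal at 222 in GLUT4 cells and 215 in vector cells (0.05).

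Both SLC3 heavy chains, which bring the SLC7 light chains to the membrane, lay within 1.5-fold. SLC3A2, the 4F2 heavy chain, read 5529.8 in GLUT4 cells and 4944 in vector cells (0.16). SLC3A1, the heavy chain of the cystine transporter of kidney and gut, lay below the median signal on its 3 probe sets, with 11.3 and 10.8 on the brightest.

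Among the light chains, SLC7A7, which exports arginine and lysine in exchange for neutral amino acids, read 306 in GLUT4 cells and 507 in vector cells, 1.66-fold lower (-0.73). It has a single probe set on the array and stood at rank 163 from the lowest. SLC7A6, its close relative with the same type of exchange, read 299 in GLUT4 cells and 417 in vector cells (-0.48), with -0.03 and -0.29 on its other probe sets. SLC7A5, the large neutral amino acid exchanger that partners SLC3A2, differed little, at 9990.4 in GLUT4 cells and 9115 in vector cells (0.13). SLC7A8, a second exchanger of that kind, read 144 and 143 (0.01). SLC7A9, the partner of SLC3A1, was dim at 23.5 in GLUT4 cells and 33.5 in vector cells (-0.51), and SLC7A10, which carries small neutral amino acids and D-serine, was dim at 15.6 and 18.5 (-0.24).

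SLC7A11, the cystine and glutamate exchanger that supplies cysteine for glutathione, gave probe sets that disagreed. The brightest read 1866 in GLUT4 cells and 2180.1 in vector cells (-0.22), and the next read 1831 and 2035 (-0.15). The third, at 139 in GLUT4 cells and 86.6 in vector cells, was 1.60-fold higher. Its bright probe sets differed in the same direction and by close to the single probe set SD of 0.20, so no direction is given for the gene.

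The cationic amino acid transporters of SLC7 carry arginine, lysine and ornithine without a heavy chain. SLC7A2, which has variants of low and of high affinity, read 1009 in GLUT4 cells and 627 in vector cells, 1.61-fold higher (0.69) and at rank 244 from the highest. Its other probe sets lay below the median signal, at 24.1 in GLUT4 cells and 29.9 in vector cells (-0.31) and at 19.1 and 17.9 (0.09). SLC7A1, the widely expressed member, read 4371 in GLUT4 cells and 4836 in vector cells (-0.15), and all of its 5 probe sets lay below 0. SLC7A3 was dim at 25.1 and 23.4 (0.10). Of the arginine and lysine carriers, SLC7A2 was thus higher and SLC7A7 lower, and SLC7A1 and SLC7A6 lay between them.

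**Figure D3:**
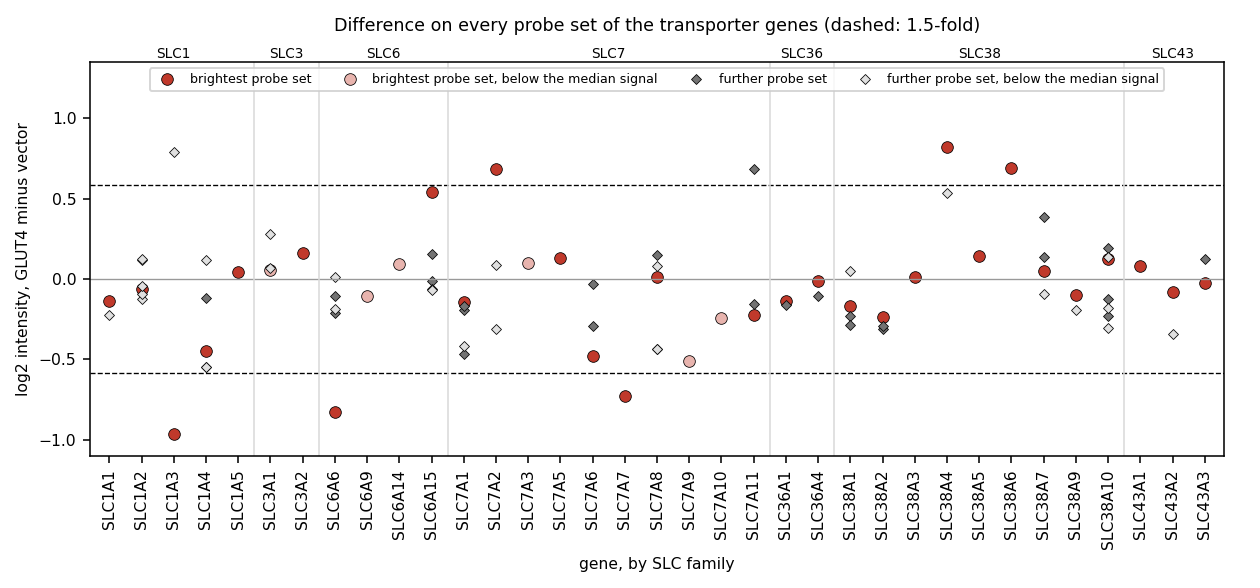
Each symbol is 1 probe set of a transporter gene, with the log2 difference (GLUT4 minus vector) on the vertical axis, the genes by SLC family on the horizontal axis and dashed lines at 1.5-fold. Circles are the brightest probe set of a gene, diamonds its further ones, and pale symbols lie below the median signal. SLC1A3 has probe sets past both lines, at -0.97 and 0.79.

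The SLC38 family held 2 of the 3 higher genes. SLC38A4, a sodium-coupled neutral amino acid transporter known from liver, read 254 in GLUT4 cells and 144 in vector cells, 1.77-fold higher (0.82) and at rank 147 from the highest. Its second probe set, below the median signal, went the same way at 34.2 in GLUT4 cells and 23.6 in vector cells (0.54, 1.45-fold higher). SLC38A6, whose substrates are less well described, read 354 in GLUT4 cells and 219.6 in vector cells on its single probe set, 1.61-fold higher (0.69) and at rank 240 from the highest.

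The glutamine and alanine carriers SLC38A1 and SLC38A2 lay on the other side of 0. SLC38A2, which cells induce when amino acids run short, read 11273 in GLUT4 cells and 13283 in vector cells on the brightest probe set, and its 3 probe sets lay between -0.31 and -0.24. SLC38A1 read 5509 in GLUT4 cells and 6195 in vector cells (-0.17), and its 3 probe sets above the median signal lay between -0.28 and -0.17. These differences are small beside 1.5-fold and close to the single probe set SD of 0.20 over all genes. The 3 probe sets above the median signal lay within 0.11 of each other for SLC38A1 and 0.077 for SLC38A2. The remaining SLC38A1 probe set, below the median signal at 32.7 in GLUT4 cells and 31.6 in vector cells, gave 0.05. SLC38A1, SLC38A2 and SLC38A4 follow each other along chromosome 12 with 0 coding genes between them in RefSeq, so neighbours differed in direction.

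The other SLC38 members were within 1.5-fold. SLC38A5, which carries glutamine, asparagine and histidine, read 455 in GLUT4 cells and 411 in vector cells (0.15), and SLC38A3, of the same transport type, 41.5 and 41.1 (0.01). SLC38A7, a carrier of glutamine and asparagine out of lysosomes, read 132.7 in GLUT4 cells and 128 in vector cells (0.05), with 0.39 on its second probe set. SLC38A9, the arginine sensor of the lysosome, read 367 and 393 (-0.10). SLC38A10 read 184 in GLUT4 cells and 169 in vector cells (0.12), and its 4 probe sets above the median signal lay on both sides of 0, between -0.23 and 0.19.

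In the SLC6 family, the taurine transporter SLC6A6 read 225 in GLUT4 cells and 400.1 in vector cells, 1.77-fold lower (-0.83) and at rank 104 from the lowest. Its further probe sets differed less. Those at 51.6 in GLUT4 cells and 55.6 in vector cells (-0.11) and at 36.9 and 42.8 (-0.21) lay near the median signal, and the remaining ones below 14 on both arrays gave 0.01 and -0.18. SLC6A15, a carrier of branched-chain amino acids and proline, read 1941 in GLUT4 cells and 1335 in vector cells (0.54, 1.45-fold higher) on its brightest probe set, just within 1.5-fold. Its next probe sets, also bright, read 1460.2 and 1471 (-0.01), 1246 and 1116 (0.16) and 332 and 347 (-0.06) in GLUT4 and vector cells, so the higher value was seen on the brightest alone. The glycine transporter SLC6A9 and the broad-range transporter SLC6A14 lay below the median signal, at 13.7 in GLUT4 cells and 14.8 in vector cells for SLC6A9 and at 6.92 and 6.49 for SLC6A14.

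By the brightest probe set, the SLC36 and SLC43 families had the smallest median size of difference, at 0.075 and 0.079. Over all their probe sets it was 0.12 for SLC36 and 0.082 for SLC43, beside 0.11 for SLC3 and 0.11 for SLC6. SLC36A1, a proton-coupled transporter of lysosomes and gut, read 178 in GLUT4 cells and 195 in vector cells (-0.14), and SLC36A4, which carries proline and tryptophan, read 365 and 369 (-0.02). SLC43A1 and SLC43A2 carry large neutral amino acids without exchange. SLC43A1 read 56.4 in GLUT4 cells and 53.3 in vector cells (0.08), and SLC43A2 read 64.6 and 68.2 (-0.08). The second SLC43A2 probe set, below the median signal, read 24.7 in GLUT4 cells and 31.3 in vector cells (-0.34). SLC43A3, a family member known as a nucleobase transporter, read 446 and 453 (-0.02), with 0.12 on its second probe set.

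The probe sets of a gene read the same RNA on the same arrays, so they show error between probe sets only and do not stand in for replicates. Of 14 members with at least 2 probe sets above the median signal, 10 had these on the same side of 0, 8 of them below it and 2 above it, while SLC6A15, SLC7A11, SLC38A10 and SLC43A3 had them on both sides. The 6 genes past 1.5-fold fared unequally. SLC7A7 and SLC38A6 have a single probe set, and SLC38A4 has a second at the same side of 0. The second of SLC1A3 was dim and lay on the opposite side. The 3 probe sets of SLC6A6 above the median signal were all below 0, between -0.83 and -0.11, with only the brightest past 1.5-fold. The further probe sets of SLC7A2 were dim and lay on both sides of 0. Averaged over all probe sets, SLC1A3 came to -0.09, SLC6A6 to -0.26 and SLC7A2 to 0.15, all within 1.5-fold, and SLC38A4 stayed past it at 0.68. Without probe sets whose names end in s_at or x_at, which match several transcripts, SLC7A7 had no value and SLC38A4 came to 0.54.

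**Figure D4:**
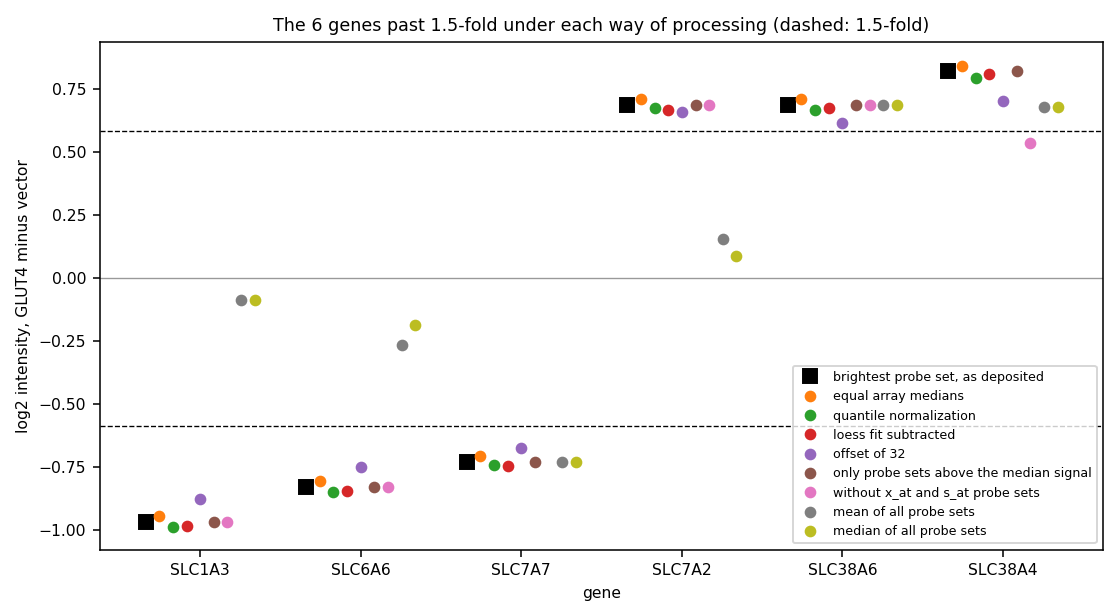
The log2 difference (GLUT4 minus vector, vertical axis) is shown for the 6 genes past 1.5-fold under each way of processing, with black squares for the brightest probe set and dashed lines at 1.5-fold. Averaging all probe sets brings SLC1A3 to -0.09 and SLC7A2 to 0.15, while SLC7A7, with 1 probe set, keeps -0.73.

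Most genes that work beside these transporters were within 1.5-fold, as were most of all genes. Of 27 other amino acid transporters measured, 0 were past 1.5-fold in either direction, which is near the 3.37% of all genes. Among them were mitochondrial carriers and the lysosomal cystine exporter CTNS, and the median of the list was -0.10. Of 29 genes of the ATF4 amino acid response, 0 were higher and 2 lower by more than 1.5-fold, with a median of -0.08. Those 2 are 6.9% of the list, beside 1.54% of all genes that were lower, and so small a count is not read as a result about the list. The lower genes were STC2, a secreted glycoprotein, at 298 in GLUT4 cells and 687 in vector cells (-1.21), with -0.30 on its other probe set, and DDIT3, a stress-induced transcription factor, at 551 and 941 (-0.77). ATF4 itself read 6740.2 in GLUT4 cells and 6242 in vector cells (0.11), and its target ASNS, which makes asparagine, read 4879 and 5166 (-0.08).

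Of 14 enzymes of glutamine, glutathione and related amino acid use, 1 was past 1.5-fold (7.14%, beside 3.37% of all genes), the mitochondrial arginase ARG2, at 291 in GLUT4 cells and 500.1 in vector cells (-0.78, 1.72-fold lower). Its other probe set read 89.3 in GLUT4 cells and 122 in vector cells (-0.46). The glutathione synthesis genes GCLC and GCLM were at 0.16 and 0.06.

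**Figure D5:**
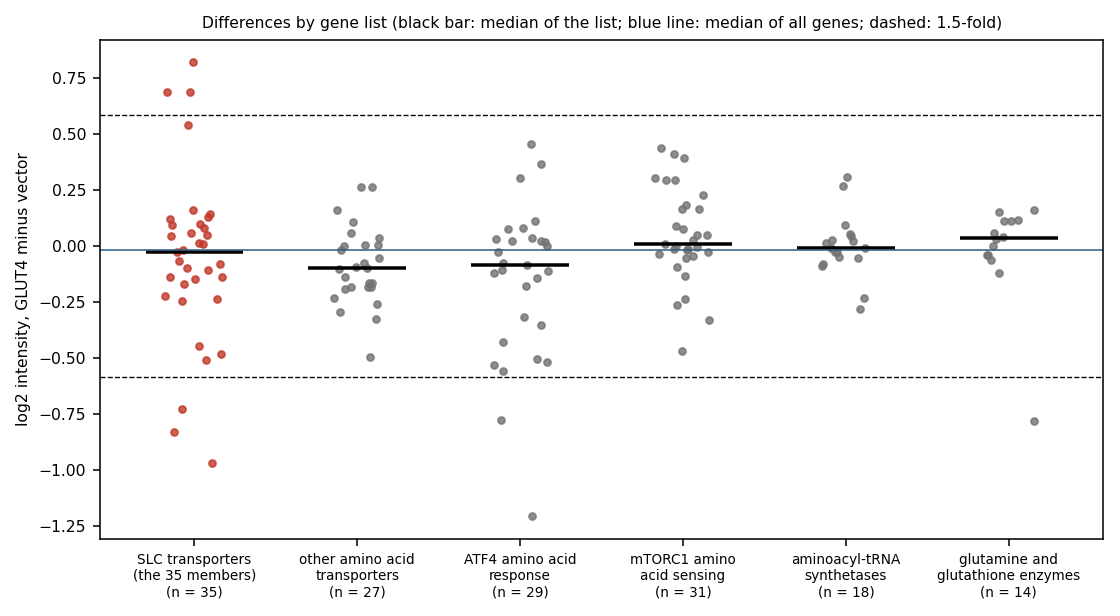
Each point is 1 gene at its brightest probe set, with the log2 difference (GLUT4 minus vector) on the vertical axis and the gene lists along the horizontal axis. Black bars are the medians of the lists, the blue line is the median of all genes at -0.02, and dashed lines mark 1.5-fold. The 35 transporters have 6 points past the dashed lines and the 27 other transporters have 0, beside 3.37% of all genes.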

How the data were processed

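Total RNA of FaDu cells carrying GLUT4 or the control vector was hybridized to 1 Affymetrix Human Genome U133 Plus 2.0 array each. The intensity values that the authors deposited are linear and already normalized between arrays, with median intensities of 39.1 (GLUT4) and 39.7 (vector) and a largest gap of 0.15 between sorted log2 values. The methods name GeneSpring and the submitters' processing notes MAS5, without a version. The sources used here do not say how these were combined. Detection calls were not used.

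A floor of 1 was set before the log2 was taken, and differences are GLUT4 minus vector. The annotation names 1 gene for 41097 of the 54675 probe sets, several for 1801 and none for 11777. Those naming several were left out, and none of them named a member. Each gene was given by its brightest probe set, by the mean log2 over the arrays. The limit of 1.5-fold is that of the methods. The 35 members and the further gene lists were chosen with earlier results of these data known. Listed genes without a probe set of their own were not analysed here.

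Every member was named. Members with a probe set past 1.5-fold were given with all their probe sets, as were up to 4 genes past 1.5-fold of each other list. ATF4, ASNS, GCLC, GCLM and the genes named in the closing section within 1.5-fold were chosen after their values were seen. With 1 array per group, the number of arrays is what limits the precision. The steps were tested on simulated data with 200 changed genes. The alternatives were the mean or the median of all probe sets of a gene, no x_at and s_at probe sets, only probe sets above the median signal, 32 added to each intensity, subtraction of a loess fit (fraction 0.3), quantile normalization and equal medians of the arrays. Python 3.11.15 was used with pandas 2.3.3, numpy 2.4.6, matplotlib 3.10.9 and statsmodels 0.14.6.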

Additional observations from a re-analysis of the deposited data

How the results depend on the processing

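No paired analysis was possible because each group had 1 array. A value was taken as moved when it differed by more than 0.20, the single probe set SD over all genes with at least 2 probe sets. The SD of the members themselves was larger, at 0.36. A count was taken as moved when it differed by more than 1.5 times. The count of transporters more than 1.5-fold lower was 3 by the brightest probe set, and 1 with the mean and 1 with the median of all probe sets. The count of glutamine and glutathione enzymes more than 1.5-fold lower was 1, and 0 without x_at and s_at probe sets. The other 141 list values over the 8 alternatives stayed within these limits, and the medians of all genes stayed between -0.02 and 0.01. One of these values sat at the limit. The count of transporters more than 1.5-fold higher was 3 by the brightest probe set. It was 2 with the mean, 2 with the median and 2 of 26 without x_at and s_at probe sets. No share of all genes past 1.5-fold is given for these alternatives. By the median of all probe sets, SLC1A3, SLC6A6 and SLC7A2 came to -0.09, -0.18 and 0.09, and ARG2 came to -0.46 without x_at and s_at probe sets. The 6 transporters past 1.5-fold kept their sign under the alternatives that gave them a value, as did STC2, DDIT3 and ARG2. Of the 29 within 1.5-fold, 7 changed sign under at least 1 alternative. Without x_at and s_at probe sets SLC1A4 came to 0.12 and SLC7A8 to -0.44, with the mean of all probe sets SLC7A11 came to 0.10, SLC7A8 to -0.13 and SLC38A10 to -0.05, and with their median SLC6A15 came to -0.01 and SLC38A10 to -0.13. The others were SLC36A4 and SLC43A3, both at -0.02 by the brightest probe set. SLC38A6 and DDIT3 were past 1.5-fold under all 8 alternatives, SLC7A7 under the 7 that gave it a value, and STC2 under all 8, between -1.22 and -0.76. Signal over background limits the 6 members below the median signal.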

Other observations

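Of 31 genes of mTORC1 amino acid sensing at the lysosome, 0 were past 1.5-fold in either direction, which is near the 3.37% of all genes, and their median was 0.01. By the brightest probe set, the values furthest from 0 were those of FNIP1, a partner of folliculin, at 413 in GLUT4 cells and 570.3 in vector cells (-0.47), of SESN1, a sestrin, at 188 and 139 (0.44), and of FLCN, folliculin itself, at 242 and 182 (0.41). Averaged over all probe sets, FNIP1 came to -0.03 over 5 probe sets and FLCN to 0.09 over 4, while SESN1 has a single probe set. LAMTOR2, a scaffold subunit, read 851 in GLUT4 cells and 648 in vector cells (0.39), and the kinase MTOR read 160.0 and 166 (-0.05).

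Of 18 cytosolic aminoacyl-tRNA synthetases and their scaffold proteins, which charge tRNAs with amino acids, 0 were past 1.5-fold in either direction, also near that share. Their median was -0.01 and the median size of their differences 0.051, beside 0.14 over all genes. AIMP1, a scaffold protein, was at 0.31 on its brightest probe set and at 0.04 averaged over its 3 probe sets, and AARS1, the alanine enzyme, was at -0.28 on its single probe set. Of the ATF4 response genes within 1.5-fold, GDF15 was at -0.55 and JDP2 at -0.53 on the brightest probe set. TRIB3, a pseudokinase, was at -0.52, DDIT4, an mTORC1 inhibitor, at -0.50, and PPP1R15A, a phosphatase subunit, at 0.45. Averaged over all probe sets, GDF15 came to -0.23 and JDP2 to -0.28. The whole list had 12 genes above 0 and 17 below.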
